A study of Mus musculus with 24 samples.

Results

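The 8 interferon regulatory factor genes Irf1, Irf2, Irf3, Irf4, Irf5, Irf7, Irf8 and Irf9 were examined in the RNA of mouse neural precursor cells (NPCs) on their way to induced pluripotent stem cells (iPSCs), with and without interferon-γ (IFNγ). They were chosen as a family by name and make up 8 of the 37315 genes in the deposited table. The RNA-seq data hold 24 libraries, or 2 replicates of 12 populations, all derived from 1 PaX line of female hybrid mouse embryonic stem cells (ESCs) that carry 1 X chromosome of M. musculus and 1 of M. castaneus origin. The line holds a doxycycline-inducible MKOS cassette (c-Myc, Klf4, Oct4 and Sox2), a GFP reporter on the M. musculus X chromosome (X-GFP), an RFP reporter driven by the Nanog promoter and a truncation of Tsix, and every population shares these alleles. ESCs were kept in serum and LIF, NPCs were made from them in EGF and bFGF, and neither received IFNγ. Reprogramming cells were grown with doxycycline, LIF and ascorbic acid on irradiated male mouse embryonic fibroblast feeders. They either stayed untreated (control) or were given 10 ng/ml IFNγ from day 0 to day 5. Cells without the dye CFSE, with which the feeders had been stained, were sorted at day 2, and cells carrying the surface antigen SSEA1 at day 5 and day 7. Day 7 cells had been off IFNγ since day 5 and were split by X-GFP into negative, medium and high cells, the latter 2 having regained the reporter. Nothing in the labels says which libraries came from separate reprogramming rounds, so P values measure the spread between these libraries.

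Interferon regulatory factors are transcription factors that bind short GAAA-rich elements in the promoters of interferon-responsive genes. IFNγ acts through its receptor and the kinases JAK1 and JAK2, and by way of gamma-activated sites (GAS) it switches on Irf1 and, mainly in blood cells, Irf8. Type I interferons instead act through ISGF3, a complex that holds IRF9, whereas IRF3 and IRF7 start the transcription of the type I interferon genes themselves after viral sensing, and IRF2 competes with IRF1 for the same sites.

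Each library held between 24746109 and 37056508 reads on genes. The labelled identities were checked on marker lists. The summed normalized counts of 5 pluripotency genes were 60.6 to 88.5 in NPCs and 130234 to 137799 in ESCs, and those of 6 neural precursor genes were 42058 to 45728 in NPCs and 625 to 686 in ESCs. Y-linked RNA, which the female line lacks and the male feeders hold, was counted mainly at day 2. The sum of 4 Y-linked genes was 218 to 253 in day 2 control cells, 125 to 223 in day 2 IFNγ-treated cells, at most 1.94 in NPCs and ESCs, and at most 12.5 in all other libraries. Fewer cells expressing a gene and less RNA per cell cannot be told apart in such bulk samples.

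Among the members, Irf1, Irf3 and Irf9 made up most of the family's RNA, whereas Irf4 was near 0 throughout. Levels were compared between genes as normalized counts per kilobase of exon. Irf3 was the highest member in NPCs, at 257 per kilobase, and in ESCs, at 212 per kilobase. Irf9 was the highest in day 2 control cells, at 474 per kilobase, and Irf1 in the other 9 populations, up to 1941 per kilobase in day 2 IFNγ-treated cells. The same member came first in all 12 populations when the length of the longest transcript was used instead. The per-kilobase level summed over the 8 members was 396 in NPCs, 950 in day 2 control cells and 3413 in day 2 IFNγ-treated cells, and it was 496 in ESCs.

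**Figure D1:**
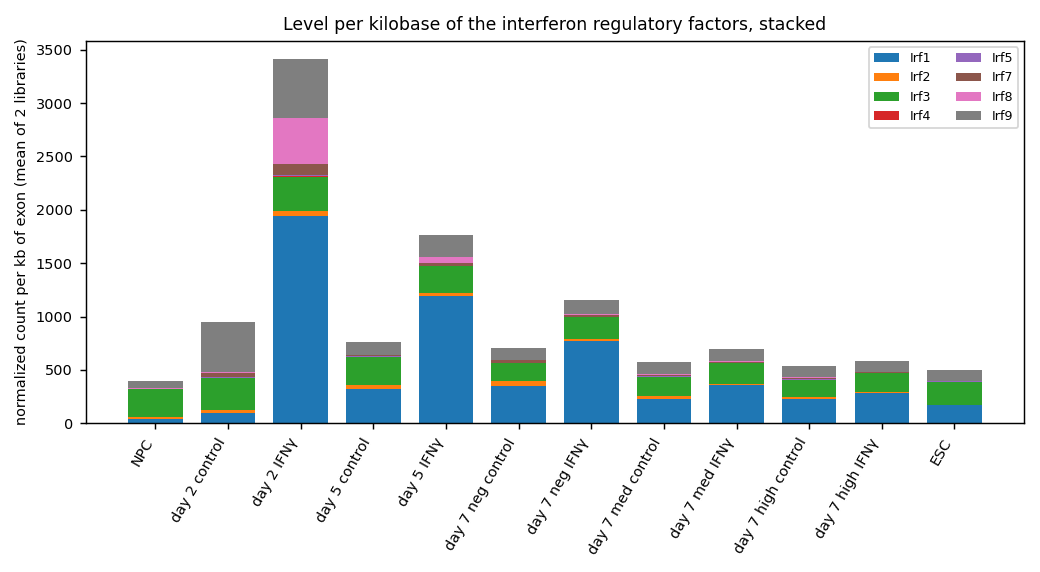
Mean normalized count per kilobase of exon (vertical axis, linear, from 0; mean of 2 libraries) of the 8 interferon regulatory factors, stacked for the 12 populations. Irf1 reached 1941 in day 2 IFNγ-treated cells, Irf9 474 in day 2 control cells, and Irf3 stayed between 161 and 322.

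**Figure D2:**
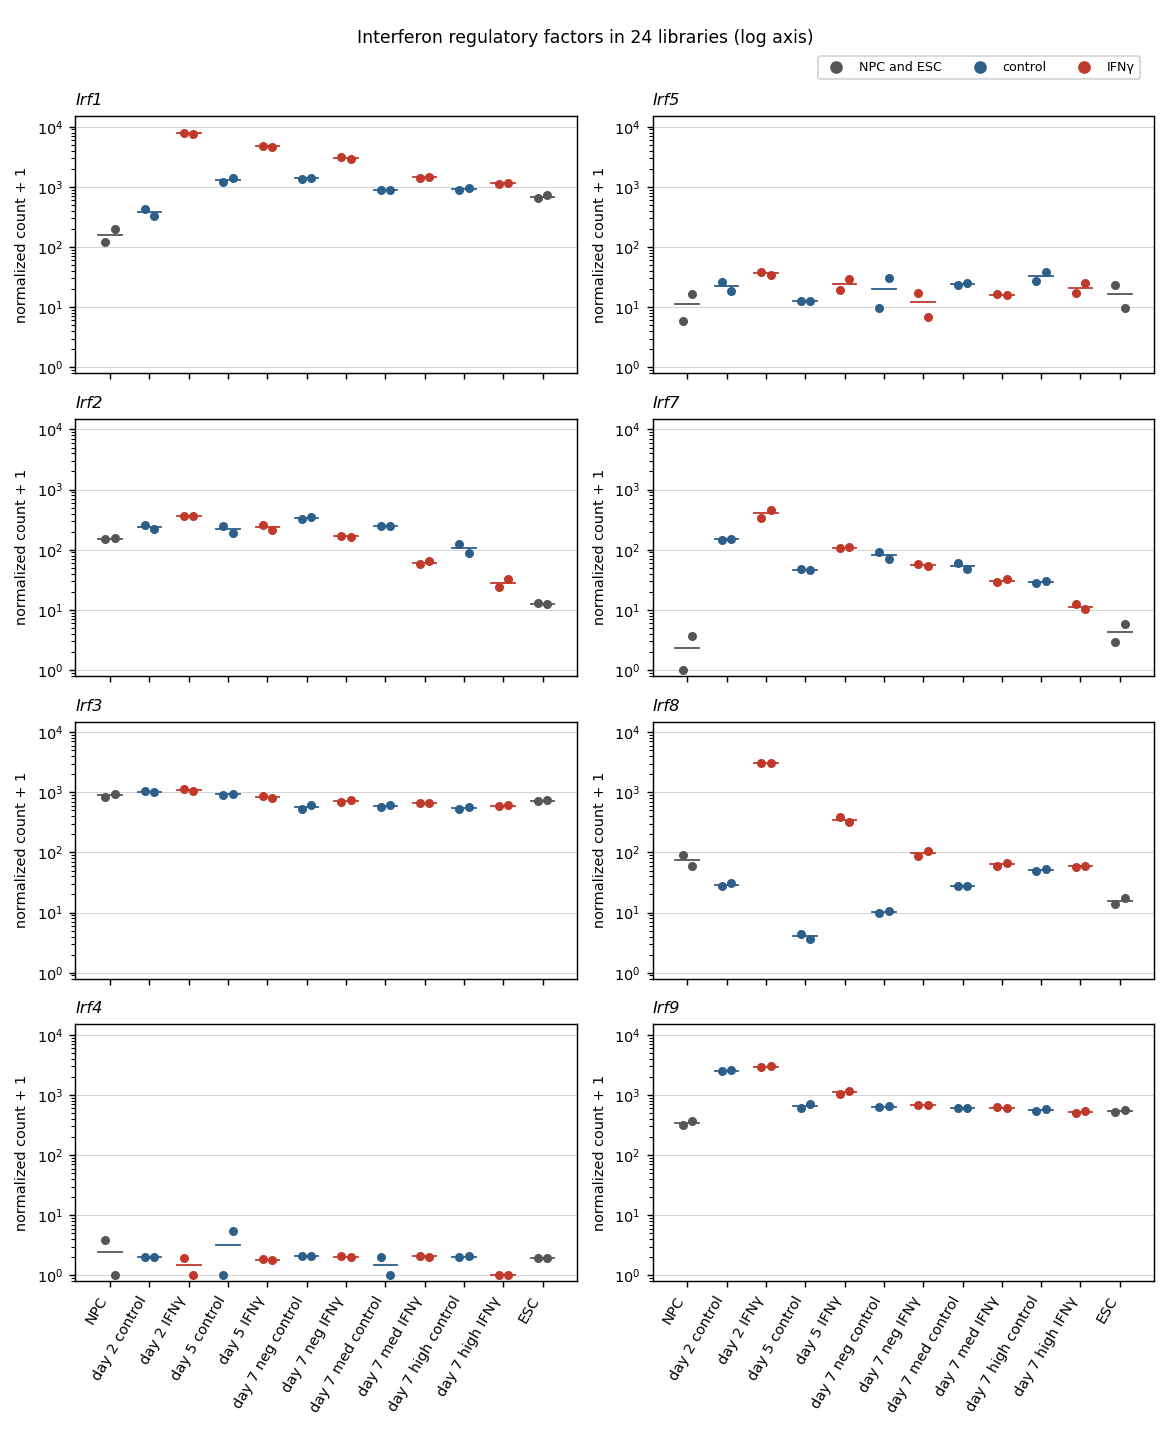
Normalized count + 1 (log axis) of each member in the 24 libraries; each point is 1 library and each bar the mean of 2, in gray for NPCs and ESCs, blue for control and red for IFNγ-treated cells ("neg", "med" and "high" are X-GFP–negative, –medium and –high). Every member except Irf4 had its highest mean at day 2 with IFNγ. Irf2 was lowest in ESCs, Irf9 stood between 2509 and 3049 in the 4 day 2 libraries, and Irf4 never exceeded 4.44.

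To find which members responded to IFNγ, the 2 treated libraries of each day and population were set against the 2 control libraries. The limma fits used log2(normalized count + 1), so each log2 fold change is on that scale and understates changes of low genes. Genes with a mean above 10 were tested, two-sided, and the threshold was an adjusted P of 0.1. Irf4 failed this filter in every comparison, and the other 7 members passed it in all comparisons with IFNγ. At day 2, 5 of the 7 were higher and 0 lower with IFNγ, where 5.03% of all genes were called higher and 3.45% lower. The count was 3 without control replicate 2 or either IFNγ replicate, and 3 with no filter on low values. The median log2 fold change was 0.71 over the 7 members and 0.01 over all genes tested. Day 5 cells had 4 members higher and 0 lower, beside 1.65% and 0.535% of all genes, with medians of 0.91 and 0.00, and the count was 2 without control replicate 1 or IFNγ replicate 2. At day 7, X-GFP–negative cells had 3 higher and 2 lower, beside 31.1% and 30.8% of all genes, and 3 in all without IFNγ replicate 2. The X-GFP–medium population had 2 higher and 2 lower, beside 33.3% and 29.6%, and the X-GFP–high population 1 higher and 2 lower, beside 18.1% and 20.4%. These day 7 shares of the members are near those of all genes.

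**Figure D3:**
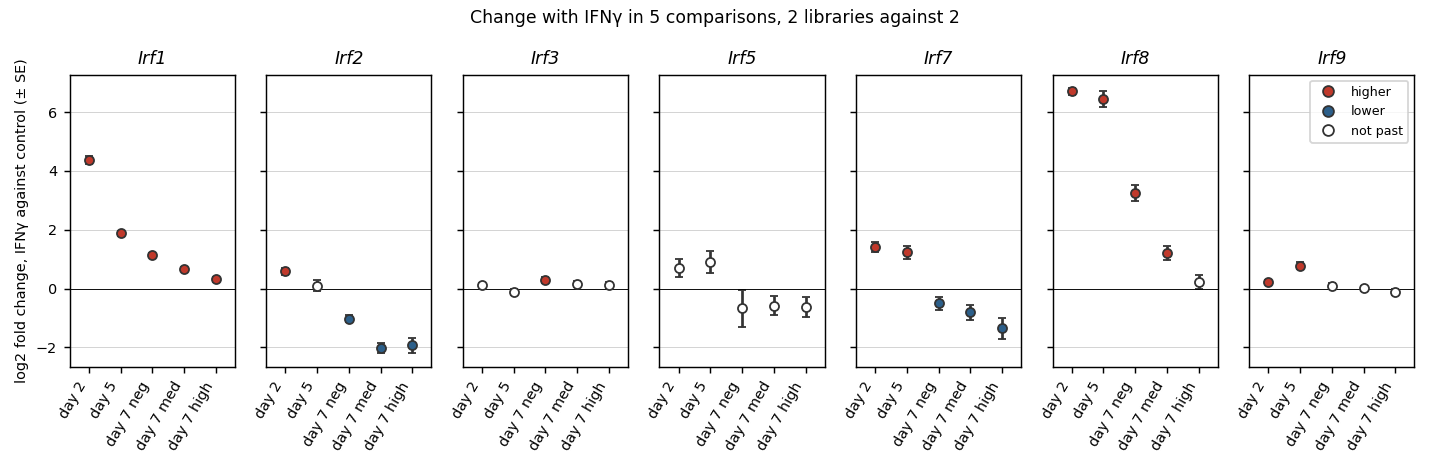
Log2 fold change with IFNγ (vertical axis, limma, ± SE, 2 libraries against 2) of the 7 tested members at day 2, day 5 and in the 3 day 7 populations; red points passed the threshold as higher, blue as lower, and white points did not pass. Irf8 stood at 6.71 at day 2 and 6.45 at day 5 and was smaller in each day 7 population, Irf1 went from 4.37 at day 2 to 0.32 in X-GFP–high cells, and the points of Irf2 and Irf7 lay above 0 at day 2 and below 0 at day 7.

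Irf1, the factor through which many IFNγ-responsive genes are switched on, was higher with IFNγ in all 5 comparisons. At day 2 its normalized count was 424 and 327 in the control libraries, and 7947 and 7484 with IFNγ. Both treated libraries were far above both control libraries, a ratio of means of 20.6 (log2 fold change 4.37 ± 0.12 SE, limma adjusted P = 5.2e-06). The count at day 5 was 1198 and 1392 in control and 4852 and 4638 with IFNγ. The groups were again apart, with a log2 fold change of 1.88 ± 0.09 SE (adjusted P = 0.00023), the control level being higher and the treated level lower than at day 2.

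Irf1 was still higher in treated cells at day 7, when IFNγ was no longer in the medium. X-GFP–negative cells had 1365 and 1400.2 in control and 3152 and 2951 with IFNγ, a log2 fold change of 1.14 ± 0.07 SE (limma adjusted P = 3.6e-06). The counts of X-GFP–medium cells were 900.3 and 902 in control and 1413 and 1459 with IFNγ (log2 fold change 0.67 ± 0.07 SE, adjusted P = 3.2e-05). In X-GFP–high cells they were 869 and 969 in control and 1119.6 and 1171 with IFNγ. The libraries did not overlap in any of these populations, but the difference in X-GFP–high cells was small (0.32 ± 0.09 SE, adjusted P = 0.018) and the call was lost without control replicate 1 (adjusted P = 0.231) and with all 24 libraries in 1 fit (adjusted P = 0.144). The interaction term between day 5 and day 2 put the IFNγ effect on Irf1 5.63-fold lower at day 5 (log2 difference -2.49 ± 0.17 SE, adjusted P = 0.00059). Day and sort cannot be told apart here, as day 2 cells were sorted without CFSE and day 5 cells by SSEA1. Y-linked sums in control and treated cells were 218 to 253 and 125 to 223 at day 2, and 2.66 to 5.89 and 8.62 to 8.70 at day 5. The part of feeder RNA in the day 2 response of Irf1 and in this difference was not tested. The same interaction term called 1 of 7 members lower and 0 higher, where 0.474% of all genes were lower and 0.202% higher. Irf9 was called beside Irf1, as higher, with all 24 libraries in 1 fit (adjusted P = 0.041), with DESeq2 (adjusted P = 0.049), with the replicate block (adjusted P = 0.069) and without day 5 IFNγ replicate 1 (adjusted P = 0.077).

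Irf8, best known as a factor of macrophages, dendritic cells and B cells, had the largest increase of the members at day 2 and day 5. Its day 2 counts were 26.5 and 29.8 in control and 3045 and 3032 with IFNγ. The treated libraries thus stood 108-fold above the control by the ratio of means (log2 fold change 6.71 ± 0.12 SE, limma adjusted P = 5.5e-07). At day 5 they were 3.37 and 2.66 in control, which rested on 4 and 3 reads, and 381 and 319.5 with IFNγ. The groups were apart (adjusted P = 0.00012), and the ratio of 115 had a 95% counting interval of 55.8 to 288, which covers counting error only. The responses of Irf8 at day 5 and day 2 were not shown to differ (interaction term -0.26 ± 0.27 SE, adjusted P = 0.80, and above 0 with a pseudocount of 0.1, DESeq2 or edgeR). Day and sort differed together here too, and the part of feeder RNA in the day 2 response of Irf8 was not tested.

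At day 7, the difference of Irf8 between treated and control cells was smaller from each population to the next as X-GFP rose, and its control level was higher. X-GFP–negative cells had 8.78 and 9.66 in control and 87.0 and 106 with IFNγ (log2 fold change 3.25 ± 0.27 SE, limma adjusted P = 1.7e-05). Counts of the X-GFP–medium population were 26.7 and 26.8 in control and 59.3 and 66.9 with IFNγ (1.21 ± 0.24 SE, adjusted P = 0.0021). X-GFP–high cells had 48.5 and 51.2 in control and 57.1 and 58.9 with IFNγ. The libraries of this last pair did not overlap either, yet the difference of 0.22 ± 0.23 SE did not pass the test (adjusted P = 0.52). The interaction term between X-GFP–high and X-GFP–negative cells was -3.03 ± 0.33 SE for Irf8 (adjusted P = 0.00043) and -0.82 ± 0.11 SE for Irf1 (adjusted P = 0.0011). Irf2 was the only other member called by it (-0.92 ± 0.29 SE, adjusted P = 0.058, a call lost in 6 of 8 fits that left out 1 library), so that 3 of 7 were lower and 0 higher, where 13.3% of all genes were lower and 9.43% higher.

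In cells without IFNγ, Irf8 followed another course than Irf1. Counts of Irf8 were 89.5 and 58.9 in NPCs and fell by 1.34 ± 0.30 SE on the log2 scale to day 2 (limma adjusted P = 0.0097). Day 2 control cells were in turn 9.31-fold above day 5 control cells, with a 95% counting interval of 4.23 to 24.2 (adjusted P = 0.00059). Among day 7 control cells, those with high X-GFP exceeded those without it by 2.32 ± 0.30 SE (adjusted P = 3.9e-05), and ESCs had 12.8 and 16.2. Counts of Irf1 were 119 and 198 in NPCs, rose to day 2 by 1.27 ± 0.28 SE (adjusted P = 0.0085), a call lost without day 2 control replicate 1 (adjusted P = 0.124), and to day 5 by 1.79 ± 0.15 SE (adjusted P = 5.1e-05). ESCs had 658 and 719, above NPCs by 2.16 ± 0.25 SE (adjusted P = 0.00034) and below X-GFP–high control cells, which had 869 and 969 (log2 fold change -0.41 ± 0.09 SE, adjusted P = 0.0006). Successive comparisons of this course share libraries.

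Macrophage and lymphocyte genes were examined beside Irf8. Of 8 macrophage and microglia genes, Aif1 was at 0.467, Tyrobp at 2.36, Fcgr1 at 1.43 and Ptprc at 5.80 normalized counts in day 2 IFNγ-treated cells, as means of 2 libraries. The sum of the list was 482 to 606 in day 2 control and 457 to 616 in day 2 IFNγ-treated cells, and Cd68 and Laptm5 carried most of it. More than 3 reads in a library were reached by 4 of the 8 genes in control and 5 in treated cells. The 6 lymphocyte genes summed to 92.3 to 120.2 in control and 71.0 to 72.2 in treated cells at day 2, with Cd3e, Cd8a and Ms4a1 at 0 in both. Of these 6, 3 exceeded 3 reads in control and 2 in treated cells. The presence of macrophages or lymphocytes was not tested. Spi1, the blood cell factor with which IRF8 often binds DNA, had a mean of 0.962 with IFNγ at day 2. Batf2, a leucine zipper partner of IRF8, had 1.02 and 2.98 in control and 295 and 342 with IFNγ at day 2, a ratio of 158 (95% counting interval 61.5 to 583, limma adjusted P = 0.00018). Batf3 had 3.06 and 2.98 in control and 27.1 and 25.7 with IFNγ, a ratio of 8.77 (3.78 to 24.9, adjusted P = 0.01).

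The promoter windows of the members are shown for the GAS letters TTCNNNGAA, an element known from promoters of IFNγ-responsive genes. These letters were chosen with the responses of the members known, and their part in any response was not tested. Windows from 250 bases before to 50 bases after each RefSeq start (GRCm38.p6) were matched for all 8 members, in 11 windows. Both strands were searched; the letters read the same on both. TTCNNNGAA was found in 3 of the 11 windows, those of Irf1, Irf2 and Irf8, and in 8.3% of all 32851 windows. Capitals mark the GAS letters in 80 bases of the plus strand, which is the strand of these 3 genes, from chr11:53769888-53769967 for Irf1, chr8:120736160-120736239 for Irf8 and chr8:46739495-46739574 for Irf2.

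Irf1: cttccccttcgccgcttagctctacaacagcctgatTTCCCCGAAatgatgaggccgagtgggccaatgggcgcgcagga
Irf8: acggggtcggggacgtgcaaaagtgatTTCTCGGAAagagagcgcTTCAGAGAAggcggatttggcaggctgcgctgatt
Irf2: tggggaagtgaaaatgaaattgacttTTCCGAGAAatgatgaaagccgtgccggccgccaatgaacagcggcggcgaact

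The match began 90 bases before the start in Irf1, 171 and 153 bases before it in Irf8 and 224 bases before it in Irf2. The letters GAAA followed by any 2 bases and GAAA again, an element of the kind that the factors themselves bind, were found in 1 of the 11 windows, that of Irf2, and in 3.44% of all windows. They began 241 bases before its start and did not overlap the GAS letters. The windows of Irf3, Irf4, Irf5, Irf7 and Irf9 had neither set of letters. A match describes these windows only and is not a measured binding site.

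Most genes listed as known targets of IRF1 were higher with IFNγ at day 2 and day 5. The list, written with earlier results of these data known, had 9 of 10 higher and 0 lower at day 2. Of all genes, 5.03% were called higher and 3.45% lower. The median log2 fold change of the list was 5.47, beside 0.01 over all genes. The 8 that could be tested at day 5 were all higher, beside 1.65% of all genes, with a median of 3.95. The part of IRF1 in these changes was not tested. Psmb9, an immunoproteasome subunit, had 40.7 and 42.7 in control and 3409 and 3655 with IFNγ at day 2 (log2 fold change 6.37 ± 0.10 SE, limma adjusted P = 3.8e-07). Nlrc5, the transactivator of MHC class I genes, had 162 and 143 in control and 9886 and 10792 with IFNγ (6.08 ± 0.09 SE, adjusted P = 2.3e-07). Both genes were far above their controls in both libraries. Ciita, the transactivator of MHC class II genes, rested on 1 read in the control libraries together and on 1030 reads with IFNγ, with counts of 606 and 378. Its ratio of 985 had a 95% counting interval of 176 to 38940 (adjusted P = 0.00013). At day 7 the list had 7 higher and 0 lower of 8 in X-GFP–negative cells, beside 31.1% and 30.8% of all genes, with a median of 1.58. It had 5 higher and 1 lower of 8 with medium X-GFP, beside 33.3% and 29.6%, and 4 higher and 1 lower of 8 with high X-GFP, beside 18.1% and 20.4%, with medians of 0.87 and 0.41. Jak2, a kinase of the IFNγ receptor, was higher with IFNγ at day 2 by 0.33 ± 0.06 SE (adjusted P = 0.024).

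Irf2, the antagonist of IRF1, was the member with the largest decrease with IFNγ, and this was seen at day 7. X-GFP–negative cells had 328 and 349 in control and 169 and 164 with IFNγ, and the treated level was 0.492 of the control (log2 fold change -1.02 ± 0.12 SE, limma adjusted P = 0.00012). Irf2 in the X-GFP–medium population was at 244 and 245 in control and at 56.0 and 63.8 with IFNγ, or 0.245 of the control (-2.01 ± 0.16 SE, adjusted P = 6e-06). X-GFP–high cells had 126 and 87.5 in control and 22.8 and 31.2 with IFNγ, or 0.253 of the control (-1.93 ± 0.27 SE, adjusted P = 0.00028). In each population both treated libraries lay below both control libraries.

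Before day 7 Irf2 was not called lower in treated cells. Day 2 libraries had 259.7 and 222 in control and 359.9 and 362 with IFNγ, a log2 fold change of 0.59 ± 0.13 SE (limma adjusted P = 0.055). This call was lost without control replicate 2 (adjusted P = 0.183), without IFNγ replicate 1 (adjusted P = 0.147), without IFNγ replicate 2 (adjusted P = 0.21) and with no filter on low values (adjusted P = 0.112). At day 5 the counts were 251 and 188 in control and 254 and 215 with IFNγ. These overlapped, and the difference of 0.10 ± 0.19 SE did not pass the test (adjusted P = 0.81). The IFNγ effect differed between X-GFP–negative cells at day 7 and day 5 by -1.12 ± 0.23 SE for Irf2 (interaction term, adjusted P = 0.0069).

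Without IFNγ, Irf2 was lowest in ESCs, and among day 7 cells it was lower with high X-GFP than without. It was at 148 and 156 in NPCs and at 11.8 and 11.4 in ESCs, 0.0763 of the NPC level (log2 fold change -3.60 ± 0.23 SE, limma adjusted P = 3.1e-05). X-GFP–high control cells were below X-GFP–negative control cells (log2 fold change -1.68 ± 0.17 SE, adjusted P = 5.3e-06), and ESCs were below X-GFP–high control cells (-3.07 ± 0.27 SE, adjusted P = 2.2e-07). Several marker lists also differed between treated and control cells at day 7. The summed counts of the 5 pluripotency genes were 56645 to 57902 in control and 74328 to 75535 in treated X-GFP–medium cells. The sums of X-GFP–high cells were 92479 to 96008 in control and 106634 to 108871 with IFNγ. In X-GFP–negative cells the sums were 35853 to 39063 in control and 39096 to 39906 with IFNγ. The 8 fibroblast genes summed to 4437 to 5019 in control and 1217 to 1281 in treated X-GFP–negative cells, to 4981 to 5582 and 823 to 982 in X-GFP–medium cells, and to 2026 to 2486 and 553 to 708 in X-GFP–high cells. The macrophage and microglia genes summed to 3224 to 3653 in control and 1540.2 to 1633 in treated X-GFP–negative cells, to 2766 to 3136 and 1676 to 1862 in X-GFP–medium cells, and to 1827 to 2036 and 1571 to 1705 in X-GFP–high cells. For the lymphocyte genes the sums were 129 to 150.3 and 47.5 to 58.0, then 185 to 189 and 61.7 to 63.8, then 88.7 to 98.2 and 44.6 to 63.6, in the same order. In ESCs the macrophage and microglia list summed to 1516 to 1557 and the lymphocyte list to 45.7 to 55.0. At day 5 the macrophage and microglia list summed to 1141 to 1256 in control and 1355 to 1863 in treated cells. Neural precursor sums were 4771 to 4838 in control and 4989 to 5200 in treated X-GFP–negative cells, 2983 to 3235 and 1548 to 1852 in X-GFP–medium cells, and 1569 to 1631 and 711 to 747 in X-GFP–high cells. Y-linked sums stayed at or below 12.5. The part of these lists in the lower Irf2 of treated cells was not tested.

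Irf9, the DNA-binding subunit of ISGF3, was highest at day 2 in both arms. The counts were 319.9 and 371 in NPCs, 2509 and 2594 at day 2 and 601 and 696 at day 5 without IFNγ. The rise from NPCs to day 2 was 7.39-fold (log2 fold change 2.89 ± 0.10 SE, limma adjusted P = 3.3e-05), and from day 2 to day 5 it fell by 1.98 ± 0.09 SE on the log2 scale (adjusted P = 6.9e-06). ESCs had 527 and 562, and the day 7 libraries lay between 506 and 688. With IFNγ, day 2 cells had 2896 and 3049 (0.22 ± 0.06 SE, adjusted P = 0.094). This small difference lost its call without any 1 of the 4 libraries (adjusted P 0.169 to 0.44), with no filter, with values rescaled to equal totals, in a joint fit of the 24 libraries and with DESeq2. Day 5 treated cells had 1038 and 1178, above both control libraries (0.77 ± 0.12 SE, adjusted P = 0.045), and this call was lost without control replicate 1 (adjusted P = 0.148) and without IFNγ replicate 2 (adjusted P = 0.174). No day 7 population passed the test for Irf9, with differences of 0.10, 0.01 and -0.11 from the negative to the high population.

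Irf7, which amplifies the type I interferon response and is itself a target of ISGF3, was like Irf9 higher in day 2 control cells than in NPCs and lower again at day 5. NPCs had counts of 0 and 2.64, which rested on 3 reads, and day 2 control cells had 145 and 151. The ratio of 107 had a 95% counting interval of 36.2 to 521 (limma adjusted P = 0.00043). Day 5 control cells had 46.3 and 44.4, below day 2 (log2 fold change -1.68 ± 0.21 SE, adjusted P = 0.00037). At later steps Irf7 was called and Irf9 was not, and the genes were not tested against each other. Irf7 was higher in X-GFP–negative than in day 5 control cells by 0.79 ± 0.23 SE (adjusted P = 0.019), a call lost without X-GFP–negative control replicate 1 (adjusted P = 0.181) and with all 24 libraries in 1 fit (adjusted P = 0.115). Irf7 was lower with high X-GFP than without (-1.48 ± 0.23 SE, adjusted P = 0.00017), and Irf9 passed at neither step (-0.01 and -0.17). With the replicate block, Irf9 was called lower with high X-GFP than without (limma adjusted P = 0.061). For Irf7, ESCs were at 1.97 and 4.76, on 2 and 5 reads, and X-GFP–high control cells were 8.21-fold above them (95% counting interval 3.72 to 21.4, adjusted P = 4.3e-05).

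With IFNγ, Irf7 was higher early and lower late. Day 2 treated cells had 340.3 and 463, above both control libraries (log2 fold change 1.42 ± 0.17 SE, limma adjusted P = 0.0074). At day 5 treated cells had 104 and 111 (1.23 ± 0.21 SE, adjusted P = 0.062), a call lost with no filter on low values (limma adjusted P = 0.1225). It was also lost without control replicate 1 (log2 fold change 1.257), control replicate 2 (1.198) or IFNγ replicate 2 (1.185). In X-GFP–negative cells the counts were 90.0 and 69.7 in control and 58.0 and 53.5 with IFNγ. The groups did not overlap (-0.50 ± 0.21 SE, adjusted P = 0.07), but the call was lost without control replicate 1 (adjusted P = 0.367), without IFNγ replicate 2 (adjusted P = 0.174), with no filter, with rescaled values, with all 24 libraries in 1 fit and with DESeq2.

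Irf7 was also lower with IFNγ in the 2 populations that had regained X-GFP. X-GFP–medium cells had 59.3 and 46.5 in control and 28.0 and 31.4 with IFNγ (log2 fold change -0.80 ± 0.26 SE, limma adjusted P = 0.023), a call lost without control replicate 1 (adjusted P = 0.22), with all 24 libraries in 1 fit (adjusted P = 0.116) and with DESeq2 (adjusted P = 0.127). X-GFP–high cells had 26.8 and 28.8 in control and 11.4 and 9.25 with IFNγ (-1.35 ± 0.35 SE, adjusted P = 0.012), which DESeq2 did not call (adjusted P = 0.114). Treated libraries were the lower ones in both populations. The interaction term between X-GFP–negative cells and day 5 was -1.73 ± 0.29 SE for Irf7 (adjusted P = 0.0029). By that term 1 member, Irf3, was higher (0.42 ± 0.14 SE, adjusted P = 0.052) and 5 of 7 were lower, where 17.8% of all genes were higher and 22.5% lower.

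Known targets of ISGF3 were high in day 2 cells that had received no IFNγ. All 9 genes known as ISGF3 targets were higher in day 2 control cells than in NPCs, with a median log2 fold change of 7.85. Of 15738 genes tested at this step, 4977 were called higher and 5921 lower. From day 2 to day 5, 7 of the 9 were lower again, with a median of -4.48. Of 15729 genes tested there, 5497 were called higher and 5607 lower. Rsad2, an antiviral enzyme, went from 0.972 and 4.39 in NPCs to 697 and 815 at day 2 and a mean of 28.6 at day 5 without IFNγ. Mx2, an antiviral GTPase, went from 10.7 and 10.5 to 814 and 903 at day 2. Stat2, which codes for another subunit of ISGF3, was higher than in NPCs by 0.69 ± 0.10 SE (limma adjusted P = 0.0015). The list of type I interferon receptor and ISGF3 partner genes had 3 higher and 1 lower of 4 at this step, with a median of 0.60. Of 7 interferon genes, Ifna1, Ifna4 and Ifnb1 had no read in the 24 libraries, and no other one had more than 2 reads in a library. The same step from NPCs to day 2 moved cells onto the feeders. Beside the Y-linked sum of 218 to 253, against at most 1.94 in NPCs, the sum of 8 fibroblast genes was 41252 to 61111 in day 2 control cells, 25136 to 30557 in day 2 IFNγ-treated cells and 28615 to 41003 in NPCs. The part of feeder RNA in the levels of Irf7, Irf9 and these targets at day 2 was not tested.

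With IFNγ at day 2 the ISGF3 targets split, and Stat2 rose. Stat2 had 939 and 868 in control and 3059 and 3165 with IFNγ (log2 fold change 1.78 ± 0.07 SE, limma adjusted P = 2.5e-05). Of the 9 targets, 2 were higher and 4 lower at day 2, beside 5.03% and 3.45% of all genes, with a median of -0.55. Bst2, or tetherin, had 592 and 612 in control and 1027 and 1134 with IFNγ (0.84 ± 0.08 SE, adjusted P = 0.0029). Rsad2 had 311 and 356 with IFNγ, below both control libraries (-1.18 ± 0.12 SE, adjusted P = 0.0033), and so had Mx2, with 376 and 476 (-1.02 ± 0.13 SE, adjusted P = 0.0092). Usp18, an inhibitor of type I interferon signaling, had 1710 and 1925 in control and 736 and 905 with IFNγ (-1.15 ± 0.11 SE, adjusted P = 0.0029). Socs1, an inhibitor of JAK kinases, moved the other way, with 89.6 and 79.4 in control and 583 and 586 with IFNγ (2.78 ± 0.13 SE, adjusted P = 8e-05). At day 5 the targets had 5 higher and 0 lower of 9, beside 1.65% and 0.535% of all genes, with a median of 0.92. The fibroblast sum was 41252 to 61111 in day 2 control and 25136 to 30557 in day 2 IFNγ-treated cells. The Y-linked sums of these cells were 218 to 253 and 125 to 223. The part of feeder RNA in the day 2 differences of the targets, Stat2, Usp18 and Socs1 was not tested.

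**Figure D4:**
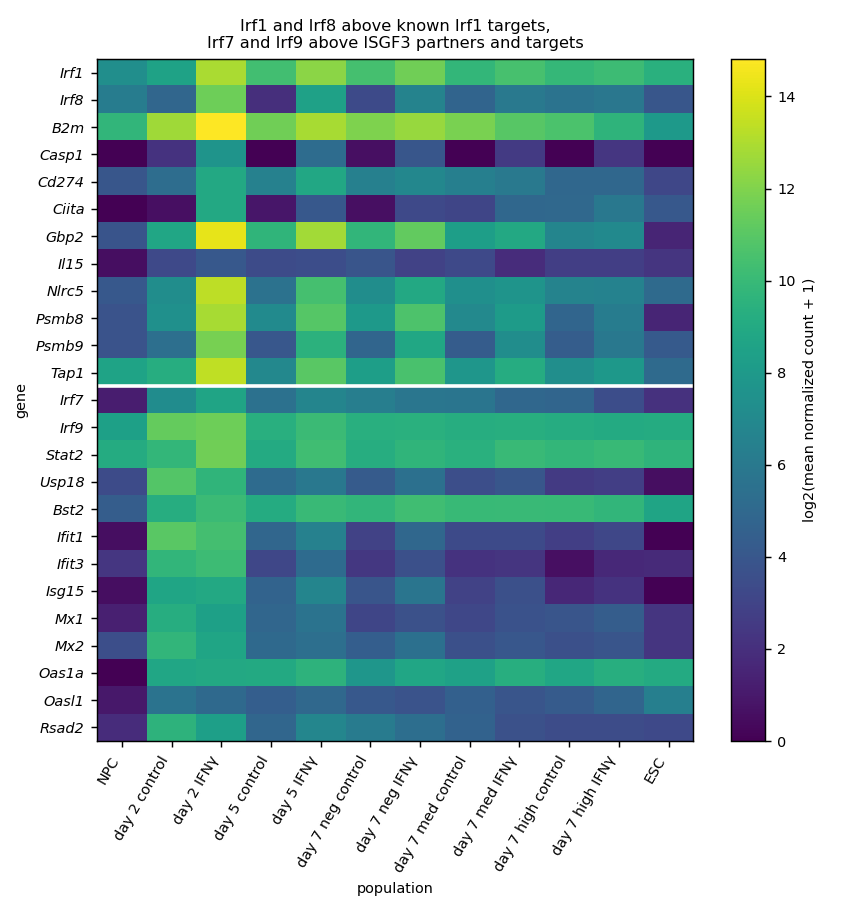
Log2(mean normalized count + 1) of Irf1, Irf8 and 10 known Irf1 targets (above the white line) and of Irf7, Irf9, Stat2, Usp18 and 9 known ISGF3 targets (below it) in the 12 populations, as color; each cell is the mean of 2 libraries. The upper block is brightest at day 2 with IFNγ, whereas Irf9 and most of the lower block were already high in day 2 control cells, such as Rsad2 with 697 and 815.

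Irf3, which is activated by phosphorylation rather than by its transcript level, stayed within 528 to 1147 in the 24 libraries. Day 2 control cells had 1041 and 1012 and treated cells 1147 and 1069.6, a difference that did not pass the test (log2 fold change 0.11 ± 0.07 SE, limma adjusted P = 0.45). Among the comparisons with IFNγ it was called in X-GFP–negative cells only, with 537 and 616 in control and 678 and 731 in treated cells (0.29 ± 0.10 SE, adjusted P = 0.034). That call was lost without control replicate 1 (adjusted P = 0.232) and without IFNγ replicate 2 (adjusted P = 0.129). X-GFP–negative control cells were below day 5 control cells (-0.68 ± 0.11 SE, adjusted P = 0.0011). Of 8 kinases and adaptors that act on IRF3 and IRF7, 2 passed the test at day 2. They were Tmem173 (STING), higher by 2.07 ± 0.23 SE (adjusted P = 0.0052), and Myd88, higher by 0.89 ± 0.11 SE (adjusted P = 0.0089). Among 6 tested nucleic acid sensors 3 were higher and 0 lower, led by Zbp1 with 1.84 ± 0.08 SE (adjusted P = 6.5e-05). Of all genes, 5.03% were called higher and 3.45% lower at day 2.

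Irf5, a factor of inflammatory cytokine genes in macrophages, was low in every population, between 4.86 and 37.4. Its day 2 counts were 25.5 and 17.9 in control and 37.4 and 33.6 with IFNγ, which did not overlap but did not pass the test (log2 fold change 0.71 ± 0.30 SE, limma adjusted P = 0.25). Irf5 did not pass in the other comparisons with IFNγ either, although it did in X-GFP–negative cells without control replicate 1 (adjusted P = 0.065) and in X-GFP–high cells without IFNγ replicate 2 (adjusted P = 0.06), and with the replicate number as a block at day 2 (adjusted P = 0.067) and day 5 (adjusted P = 0.092). In the order of its 12 population levels, 1 of the 11 neighboring pairs had libraries that did not overlap, a count not made over all genes. Without IFNγ it was called lower at day 5 than at day 2 (-0.82 ± 0.37 SE, adjusted P = 0.086) and in ESCs than in X-GFP–high cells (-1.09 ± 0.41 SE, adjusted P = 0.027). The former call was lost without day 2 control replicate 1 (adjusted P = 0.324) or either day 5 control replicate (adjusted P = 0.143 and 0.161), the latter without ESC replicate 2 (adjusted P = 0.274) or X-GFP–high control replicate 2 (adjusted P = 0.192). Irf4, a factor of lymphocytes, had 0 to 5 reads per library, 24 reads over all 24 libraries and at most 3 reads in 23 of them, which is at or near the floor of 3 reads used here. Its levels could not be compared between populations at this depth.

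Along the course without IFNγ most members were called at most steps, as were most genes. In ESCs against NPCs 5 of 6 tested members were called, beside 85.6% of all genes. From NPCs to day 2 it was 6 of 7, beside 69.2%, or 3 of 7 without day 2 control replicate 1, and from day 2 to day 5 it was 5 of 7, beside 70.6%. The step from day 5 to X-GFP–negative cells had 3 of 6, beside 63.7%, the step on to X-GFP–high cells 4 of 7, beside 74.0%, and ESCs against X-GFP–high cells 6 of 7, beside 75.8%. In the treated arm 6 of 7 members were lower in X-GFP–negative than in day 5 cells, where 24.2% of all genes were lower. Of these calls, Irf2 and Irf3 were each lost with DESeq2 and without day 5 IFNγ replicate 1 or either X-GFP–negative IFNγ replicate (adjusted P 0.139 to 0.189 for Irf2 and 0.162 to 0.389 for Irf3), and Irf3 also with no filter, rescaled values and the replicate block. Again 6 of 7 were lower in treated X-GFP–high than in treated X-GFP–negative cells, where 34.6% of all genes were lower, with log2 fold changes of -1.41 ± 0.07 SE for Irf1 and -2.60 ± 0.23 SE for Irf2. Here Irf3 lost its call with DESeq2 (adjusted P = 0.172) and without X-GFP–negative IFNγ replicate 1 or 2 or X-GFP–high IFNγ replicate 1 (adjusted P 0.103 to 0.311), and Irf8 without X-GFP–negative IFNγ replicate 2 (adjusted P = 0.125).

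In the order of the 12 populations, Irf1 had 9 of 11 neighboring pairs with libraries that did not overlap, the most among the members. Irf2, Irf7 and Irf8 had 8 each, Irf9 had 6 and Irf3 had 5. The same count was not made over all genes, so these numbers describe the members only. Irf1 ran from NPCs, the lowest, to day 2 IFNγ-treated cells, and the pairs that overlapped were X-GFP–negative and day 5 control cells, and X-GFP–high and X-GFP–medium control cells. In Irf2 the order ran from ESCs to day 2 IFNγ-treated cells, and day 2 control, day 5 control, day 5 treated and X-GFP–medium control cells could not be ordered. Irf7 was lowest in NPCs and ESCs, which overlapped, and Irf8 was lowest in day 5 control cells.

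The genes most like each member were sought among 16247 genes by Pearson's r over the 12 population means of log2(normalized count + 1), as a description. For Irf1 they were H2-M3 (r = 0.981), Psme1 (0.95) and Gbp4 (0.946), and for Irf8 H2-Q7 (0.904), Gbp8 (0.902) and Gm12250 (0.887). The genes nearest to Irf9 were Ifit3b (0.976), Apol9b (0.973) and Apol9a (0.96), and those nearest to Irf7 were Ifi204 (0.977), Ptk6 (0.963) and Trim30a (0.961). Irf2 was most like Itpripl2 (0.992), Creb3 (0.985) and Zadh2 (0.985). Irf3 had Dbnl, Ywhab and Ube2m, all at 0.971, and Irf5 had Churc1 (0.875), Efhd1 (0.774) and Hdc (0.774). Among the members themselves, the highest r was that of Irf7 and Irf9, 0.813 over 12 populations.

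Some of the members share sequence with a neighboring gene in the annotation. Irf9 overlaps Rnf31 on the same strand by 123 bases, and Rnf31 had 818 and 830 in control and 1150 and 1215 with IFNγ at day 2. Irf8 lies on the same strand as the readthrough model Gm20388, which had no count at day 2. Irf1, Irf3, Irf5 and Irf7 overlap Gm17334, Bcl2l12, Tnpo3 and Phrf1 on the opposite strand. The kit keeps the strand, but the strand setting of the counting is not given in the sources used here. The genes lie, on GRCm38/mm10, at chr11:53770014-53778374 (Irf1, ENSMUSG00000018899), chr8:46739732-46847458 (Irf2, ENSMUSG00000031627), chr7:44997648-45002848 (Irf3, ENSMUSG00000003184), chr13:30749226-30766976 (Irf4, ENSMUSG00000021356), chr6:29526625-29541871 (Irf5, ENSMUSG00000029771), chr7:141262706-141266481 (Irf7, ENSMUSG00000025498), chr8:120736358-120756694 (Irf8, ENSMUSG00000041515) and chr14:55603571-55610030 (Irf9, ENSMUSG00000002325). Irf7 lies on the minus strand and the others on the plus strand.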

How the data were processed

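The signal values that the authors deposited are normalized counts of 37315 genes in 24 libraries. Upstream, STAR and WASP placed the read pairs on mm10, in which positions that differ between the strains were masked. HTSeq 0.6.1 counted them per gene, and a DESeq2 size factor scaled each library. A single step per library divided 100% of its values into whole numbers (tolerance 1e-06), and these are the reads used below. GENCODE vM21, which holds 95.0% of the identifiers, gave symbols, coordinates and exon lengths. The members and gene lists were chosen with earlier results of these data known.

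Each comparison was fitted over all genes with a mean above 10 in its libraries, with limma 3.58.1 (lmFit, eBayes with trend; R 4.3.3) on log2(normalized count + 1), two-sided, with the Benjamini-Hochberg adjustment and the study's threshold of 0.1. Differences between IFNγ effects were interaction terms in 8 libraries. A gene with at most 3 reads per library was treated as at the floor. Ratios with a library at or below it have exact 95% binomial intervals on reads. The text names the 8 members, up to 3 genes per list with the largest change at day 2 among those called, and the 3 genes most like each member; marker genes, the interferon genes, Stat2 in the control course, and overlapping genes are named beside them. A pathway gene and the lists' counts with it are not reported here. Each result was recomputed with DESeq2 1.42.0 and with edgeR 4.0.16 from the reads, with a pseudocount of 0.1, without the filter, after rescaling to equal totals, in a joint fit of all 24 libraries, with a replicate block, and without each library in turn. The fits were tested on simulated data. Other steps used Python 3.11.15, numpy 2.4.6, pandas 2.3.3 and matplotlib 3.10.9.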

Additional observations from a re-analysis of the deposited data

Results flagged for a closer look

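The IFNγ effect differed between days or populations for several members by the interaction term of limma, over 8 libraries each. Values are differences of log2 fold changes, and groups of 2 libraries allow no test for a library that stands apart. Day 2 and day 5 cells also differed in their sort.

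For Irf1 the effect at day 5 minus that at day 2 was -2.49, the effect in X-GFP–negative cells minus that at day 5 was -0.74, and the effect in X-GFP–high minus X-GFP–negative cells was -0.82. Irf8 had -3.20 for X-GFP–negative cells minus day 5 and -3.03 for X-GFP–high minus X-GFP–negative cells. Irf2 had -1.12 and -0.92 in the same order, and the second of these lost its call with no filter on low values (adjusted P = 0.134) and in 6 of 8 fits that left out 1 library. The difference between X-GFP–negative cells and day 5 was -1.73 for Irf7, -0.68 for Irf9 and 0.42 for Irf3. That of Irf3 lost its call without day 5 control replicate 2 (adjusted P = 0.14), day 5 IFNγ replicate 2 (adjusted P = 0.132), X-GFP–negative control replicate 1 (adjusted P = 0.186) or X-GFP–negative IFNγ replicate 2 (adjusted P = 0.163).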

How the results depend on the processing

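Of 768 values per member and comparison under the alternatives other than leaving out a library, 715 kept their direction and side of the threshold, 33 lost their call, 14 gained one and 6 changed direction. Of 523 with 1 library left out, 441 kept both, 51 lost their call, 12 gained one and 19 changed direction. The 6 changes of direction were those of Irf9 in X-GFP–medium cells with edgeR (-0.014), Irf3 in X-GFP–high against X-GFP–negative control cells with rescaled values (0.048), Irf5 in the X-GFP–high minus X-GFP–negative term with rescaled values (-0.11), and Irf8 in the day 5 minus day 2 term with a pseudocount of 0.1 (0.065), DESeq2 (0.10) and edgeR (0.063). None of these had passed the test, and their causes were not tested.

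At day 2, 3 members were called with no filter on low values, against 5. The day 5 minus day 2 term called 2 members with all 24 libraries in 1 fit, with DESeq2 and with the replicate block, Irf9 beside Irf1, and the X-GFP–high minus X-GFP–negative term called 5 with rescaled values, against 3. Over all genes, that rescaling moved the calls of the latter term from 2101 to 4071 lower and from 1487 to 656 higher. Leaving out 1 library gave 3 to 4 members at day 2, 2 to 4 at day 5, 3 to 5 in X-GFP–negative cells, 3 to 7 for day 2 control cells against NPCs and 1 to 2 for the day 5 minus day 2 term; a lone library is then assumed to vary like the others. The log2 values that changed direction in such fits ranged from -0.10 to 0.31 for Irf2 at day 5, -1.51 to 0.16 for Irf5 in X-GFP–negative cells, -0.00095 to 0.027 for Irf9 in X-GFP–medium cells, -0.16 to 1.36 for Irf5 in ESCs against NPCs, and -0.35 to 0.062 for Irf2 in day 5 against day 2 control cells. In X-GFP–negative against day 5 control cells they ranged from -0.0096 to 0.21 for Irf1, -0.12 to 0.093 for Irf9 and -0.37 to 1.29 for Irf5, and in X-GFP–high against X-GFP–negative control cells from -0.16 to 0.041 for Irf3. The day 5 minus day 2 term ranged from -0.11 to 0.51 for Irf5 and from -0.41 to 0.029 for Irf7, and the X-GFP–high minus X-GFP–negative term from -0.79 to 0.88 for Irf5.

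Rescaling to the same total moved the median log2 fold change of all genes from 0.02 to 0.17 in X-GFP–negative cells, and the share of calls that were higher from 50.3% to 66.3%. There Irf1 was at 1.30, Irf2 at -0.86 and Irf8 at 3.39, all still called, Irf7 was at -0.35 and not called, and Irf9 was called (adjusted P = 0.032). That share went from 44.2% to 63.0% in the X-GFP–negative minus day 5 term, from 41.4% to 13.9% in the X-GFP–high minus X-GFP–negative term and from 48.8% to 59.4% in treated X-GFP–negative against treated day 5 cells. The median also moved by -0.13 in ESCs against NPCs, -0.13 in day 5 against day 2 control cells, 0.15 and -0.17 in these 2 terms, and 0.11 in X-GFP–high against X-GFP–negative control cells.

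Replicate numbers were not stated to mark a shared round. Differences between replicates correlated between treated and control cells with r of 0.406 at day 2, 0.363 at day 5 and 0.187, 0.107 and 0.0239 in X-GFP–negative, –medium and –high cells. With the replicate number as a block, 6 members were called at day 2 and 5 at day 5, the added one being Irf5 (adjusted P 0.067 and 0.092), and 6 instead of 4 in X-GFP–high against X-GFP–negative control cells. The share of all genes called with the block is not given here, so these counts describe the members only. Depth limits Irf4, Irf5, the control level of Irf8 at day 5 and Irf7 in NPCs and ESCs.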

Other observations

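The other members of the IFNγ pathway lists gave the following values, with no explanation offered. At day 7, Ifngr1, Jak1 and Jak2 were lower in treated cells in all 3 populations by limma. Of the 4 genes for the IFNγ receptor and its kinases, X-GFP–negative cells had 0 higher and 3 lower, X-GFP–medium cells 1 and 3, and X-GFP–high cells 0 and 3, with medians of -0.59, -0.60 and -0.49. All genes called lower made up 30.8%, 29.6% and 20.4% in these populations, and those called higher 31.1%, 33.3% and 18.1%. Over 66 listed pathway genes, 23 were higher and 5 lower of 54 tested at day 2, 21 higher and 0 lower of 51 at day 5, 24 higher and 13 lower of 48 without X-GFP, 17 higher and 16 lower of 48 with medium X-GFP, and 6 higher and 12 lower of 47 with high X-GFP. The shares with medium X-GFP are near those of all genes.

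Oas1a, a listed ISGF3 target, had means of 0 in NPCs, 436 in day 2 control cells, 504 in day 5 control cells and 521 in ESCs, and so stayed high where Ifit1 went from 2092 at day 2 to 28.3 at day 5 and 0 in ESCs. Cofactors and partners of the factors other than Batf2 and Batf3 did not pass the test at day 2, with 2 higher and 0 lower of 7 tested. Feedback inhibitors had 2 higher and 1 lower of 6, and the type I interferon receptor and ISGF3 partners 2 higher and 0 lower of 4. Shares of all genes at day 2 were 5.03% higher and 3.45% lower.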
